A study of Homo sapiens with 3 samples.

Results

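The ChIP-seq summits of HA-PSF-TFE3 were examined at 8 genes for proteins of the lysosomal membrane, namely LAMP1, LAMP2, CD63, MCOLN1, TPCN1, NPC1, CLCN7 and SCARB2. The genes were chosen by name with earlier results of these lists known, and their members are the peak summits that fall in a fixed window around each gene, drawn to hold the gene with about 10 kb on either side. The windows covered 490 kb in all and held 57 of the 44983 summits listed for replicate 8 and 32 of the 28084 listed for replicate 9. Since the summit positions themselves chose the members, their numbers and places are a description and carry no test. Both chromatin immunoprecipitation (ChIP-seq) libraries came from HK-2, an established human proximal tubule line, carrying a doxycycline-inducible construct for the HA-tagged fusion of SFPQ (PSF) to TFE3, and both were made after 24 h with 0.2 µg/ml doxycycline. An input DNA library from cells given the same doxycycline served the authors as background in peak calling. No library from cells without the fusion was analysed here, and the study's methods describe the ChIP libraries as independent clones, so that clone and replicate are the same thing. The series' design text names PRCC-TFE3 where its title and labels name PSF-TFE3, and the labels were followed.

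TFE3 belongs to the MiT/TFE family of basic helix-loop-helix leucine zipper factors, which bind E-boxes with the core CACGTG. Promoters of many genes for lysosomal enzymes, membrane proteins and proton pump subunits carry such elements, often as the longer CLEAR element, and the family is known for driving lysosome formation when the factors are in the nucleus. The 8 genes cover the main kinds of lysosomal membrane protein. LAMP1 and LAMP2 encode the heavily glycosylated proteins that line the inner face of the membrane, and a splice form of LAMP2 is the receptor of chaperone-mediated autophagy. CD63 is a tetraspanin of late endosomes, lysosomes and exosomes. MCOLN1 (TRPML1) and TPCN1 (TPC1) are cation channels, and CLCN7 is the chloride-proton exchanger that works with OSTM1. NPC1 exports cholesterol from the lysosome, and SCARB2 (LIMP-2) carries glucocerebrosidase to it.

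Promoter sequences are shown first, because these are the letters in which an E-box would lie. They come from RefSeq on GRCh38.p14, matched by symbol, with 7 of the 8 genes matched (LAMP2 was the other). Each is the 250 bases before the start site, 5′ to 3′ on the gene's strand, with 3 motifs in capitals wherever they occurred on either strand. These were the E-box CACGTG, the core of the M-box, another element of this family, spelled CATGTG, and the AP-1 site, spelled TGAGTCA. On the reverse strand the M-box core reads CACATG. There the AP-1 site reads TGACTCA. The summit lists are on hg19, and no position was carried from one build to the other. The first set has an E-box, namely LAMP1 (chr13:113296989-113297238, + strand), CLCN7 (chr16:1475029-1475278, − strand), MCOLN1 (chr19:7522374-7522623, + strand) and CD63 (chr12:55729010-55729259, − strand).
LAMP1: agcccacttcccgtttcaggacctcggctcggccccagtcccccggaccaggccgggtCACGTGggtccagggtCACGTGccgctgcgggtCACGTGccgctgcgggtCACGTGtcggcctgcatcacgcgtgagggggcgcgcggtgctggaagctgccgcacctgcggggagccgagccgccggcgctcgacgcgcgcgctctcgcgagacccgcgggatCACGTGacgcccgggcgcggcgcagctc
CLCN7: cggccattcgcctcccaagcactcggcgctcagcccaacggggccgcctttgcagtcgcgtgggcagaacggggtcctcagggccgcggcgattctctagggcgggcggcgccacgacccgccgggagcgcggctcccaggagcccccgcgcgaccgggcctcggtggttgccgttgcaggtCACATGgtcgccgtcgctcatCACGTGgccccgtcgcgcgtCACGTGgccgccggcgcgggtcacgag
MCOLN1: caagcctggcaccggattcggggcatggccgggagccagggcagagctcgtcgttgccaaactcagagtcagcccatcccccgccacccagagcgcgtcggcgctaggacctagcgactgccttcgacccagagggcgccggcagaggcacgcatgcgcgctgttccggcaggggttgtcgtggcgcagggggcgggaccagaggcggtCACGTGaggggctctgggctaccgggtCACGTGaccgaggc
CD63: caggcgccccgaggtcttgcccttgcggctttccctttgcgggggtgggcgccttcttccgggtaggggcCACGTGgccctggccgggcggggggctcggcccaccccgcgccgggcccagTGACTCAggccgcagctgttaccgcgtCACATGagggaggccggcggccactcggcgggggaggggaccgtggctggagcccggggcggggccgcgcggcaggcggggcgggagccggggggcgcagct
SCARB2 (chr4:76213825-76214074, − strand) is shown for comparison, as a promoter with an M-box core and no E-box.
SCARB2: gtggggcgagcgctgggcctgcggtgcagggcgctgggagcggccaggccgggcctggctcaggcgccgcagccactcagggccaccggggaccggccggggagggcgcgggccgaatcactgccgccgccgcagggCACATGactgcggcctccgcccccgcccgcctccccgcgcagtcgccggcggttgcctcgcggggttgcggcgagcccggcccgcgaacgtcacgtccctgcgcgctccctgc

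Motifs were counted over 300 bases, from 250 before to 50 after each start. The E-box CACGTG occurred in 7.26% of the 35116 promoter entries in the table, and in 4 of the 15 entries of the matched genes (26.7%), 1 each in LAMP1, CLCN7, MCOLN1 and CD63. LAMP1 held 6, beginning 192, 176, 159, 142, 28 and 1 bases upstream of the start, the last across the start itself. It was the 1 entry of all 35116 with 5 or more. CLCN7 held 2, at 47 and 27 bases upstream, with an M-box core at 68. MCOLN1 held 2, at 41 and 14 bases upstream, and 2 or more were found in 0.664% of entries. The extended form TCACGTGA, which contains the E-box and so overlaps it, was present in 0.980% of entries, and occurred 2 times each in LAMP1 and MCOLN1. CD63 has 8 entries, of which 1 held an E-box, at 180 bases upstream, together with an M-box core at 102 and an AP-1 site at 129. Across all entries the M-box core was found in 11.1% and the AP-1 site in 4.95%. SCARB2 had an M-box core alone, at 113 bases upstream, whereas NPC1 and both entries of TPCN1 had none of these motifs. A match here is a run of letters and not a measured binding site.

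Each summit is the single base of highest enrichment in a peak called in 1 library, and its score is the authors' −log10 of the q-value for that peak over input. Scores are not normalised between libraries, so a percentile within the list is given beside them where the libraries are set side by side. The lists hold no read counts, so the depth behind a score is unknown from them. A summit that is missing from a list did not pass the authors' threshold there, which is all that can be said of it. A summit was called shared if the other library had one no more than 200 bp away, and mutually nearest shared summits form a pair. Distances along a gene run from its 5′ end, which was estimated from the window, given in whole kb, less its 10 kb flank. The strand was taken from GENCODE v44 by symbol. Neighbouring genes are the next protein-coding genes in RefSeq order, given by name alone. The gene spans implied by the windows were longer than the GENCODE lengths by 0.5 to 0.9 kb for 6 genes. They were shorter by 2.2 kb for LAMP2 and by 20.8 kb for SCARB2, where the annotated gene is longer than the window implies. An error of about 1 kb in the 5′ end is thus allowed for 6 genes, while for LAMP2 and SCARB2 the error is not known. A summit closer to the estimated end than this error may lie on either side of the true start.

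Shared summits were found in the windows of 7 of the 8 genes and 25 pairs in all, 10 of them in TPCN1, 4 in NPC1, 3 in LAMP1 and 2 each in LAMP2, CD63, CLCN7 and SCARB2. MCOLN1 had none. For background, 22.5% of consecutive 50 kb tiles of the genome held a pair. Pairs lay within 2 kb of the estimated 5′ end in 6 genes, LAMP1, LAMP2, CD63, TPCN1, CLCN7 and SCARB2, with 1 pair in each, whereas 2.67% of consecutive 4 kb tiles held a pair. The tiles run through gene-poor sequence and assembly gaps, and the genes were picked with results known, so the tiles give scale and are no test. Among the 6 genes whose implied span was within 1 kb of GENCODE, 4 had such a pair (LAMP1, CD63, TPCN1 and CLCN7). Of the other 19 pairs, most lay inside the genes, which also make up most of the length of the windows. Their places are thus no result about the genes.

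Sharing in the windows was close to that in the lists at large. In replicate 8, 25 of 57 summits were shared (43.9%, 95% Wilson interval 31.8 to 56.7%), compared with 47.9% of the whole list. In replicate 9, 25 of 32 were shared (78.1%, 95% Wilson interval 61.2 to 89.0%), compared with 76.6% of the whole list. Both intervals cover counting error only and treat summits of the same window as independent, so they are no test against the whole list. The windows held 11.6 summits per 100 kb in replicate 8 and 6.53 in replicate 9, beside 1.47 and 0.92 over all chromosomes up to their last summit. The chromosome values include gene-poor sequence and assembly gaps, and the genes were picked with results known. They give scale and are no test. The median score percentile of the summits was 54.2 in replicate 8 and 55.1 in replicate 9, near the midpoint of each list. With summits scoring under 5 left out of the lists, the replicate 8 value was 45.8, on the other side of the midpoint. 

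**Figure D1:**
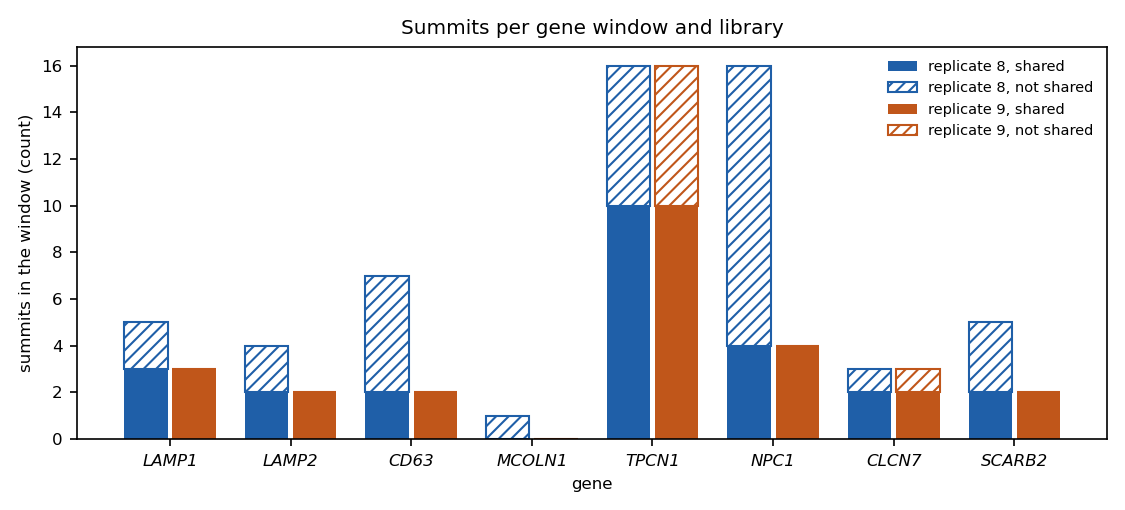
Number of summits (y axis) in each gene's window (x axis) in replicate 8 (blue) and replicate 9 (orange), with filled bars for shared and hatched bars for unshared summits. TPCN1 had 16 summits in both libraries, NPC1 had 16 in replicate 8 and 4 in replicate 9, and MCOLN1 had 1 in replicate 8 and 0 in replicate 9.

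LAMP1 (chromosome 13) had the highest-ranked pair of the 25. Replicate 8 placed it at position 113951384, where it scored 41.6 and ranked 1017 in the list. Replicate 9 placed it at 113951454, scoring 58.8 and ranking 918. These were the best summits of the window in either list and lay 70 bp apart, about 0.42 kb inside the estimated 5′ end. That distance is within the error of the end, so the side of the true start is not known. The LAMP1 promoter entry holds 6 E-boxes, of which 5 lie in the bases printed above and the sixth runs across the start. The other pairs lay well inside the gene. The pair at 7.66 kb had scores of 31.9 in replicate 8 and 30.8 in replicate 9, and the pair at 8.67 kb had scores of 11.1 and 9.41. In replicate 8 alone, weak summits were listed at 1.45 kb, with a score of 4.15, and at 3.54 kb, with a score of 3.28. Every replicate 9 summit of the window was shared.

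LAMP2 (chromosome X) also had a pair at its 5′ end, but of lower score. At 119602999 in replicate 8 the score was 21.0, and at 119602977 in replicate 9 it was 7.55, placing the pair within 0.01 kb of the estimated end. The libraries thus ranked it differently, at the 83.8 percentile of the replicate 8 list and the 36.5 percentile of the replicate 9 list. The other pair, 2.18 kb into the gene, had scores of 14.9 and 18.1 and was the better one in replicate 9. Replicate 8 had further unshared summits at 0.39 kb and 11.02 kb, with scores of 4.59 and 8.01.

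CD63 (chromosome 12) had both of its pairs inside a gene of about 5 kb. The pair 1.01 kb from the 5′ end, at 56122979 and 56123001, had scores of 27.0 in replicate 8 and 28.7 in replicate 9. That at 2.30 kb, at 56121723 and 56121675, had scores of 32.8 and 16.3, so each library placed its best summit at a different one of the pairs. An unshared replicate 8 summit with a score of 12.0 lay at 0.22 kb. Beyond the 3′ end, on the side of the neighbouring gene RDH5, replicate 8 alone had 4 summits with scores of 4.81, 6.03, 7.38 and 16.4, and their distance to RDH5 was not measured.

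**Figure D2:**
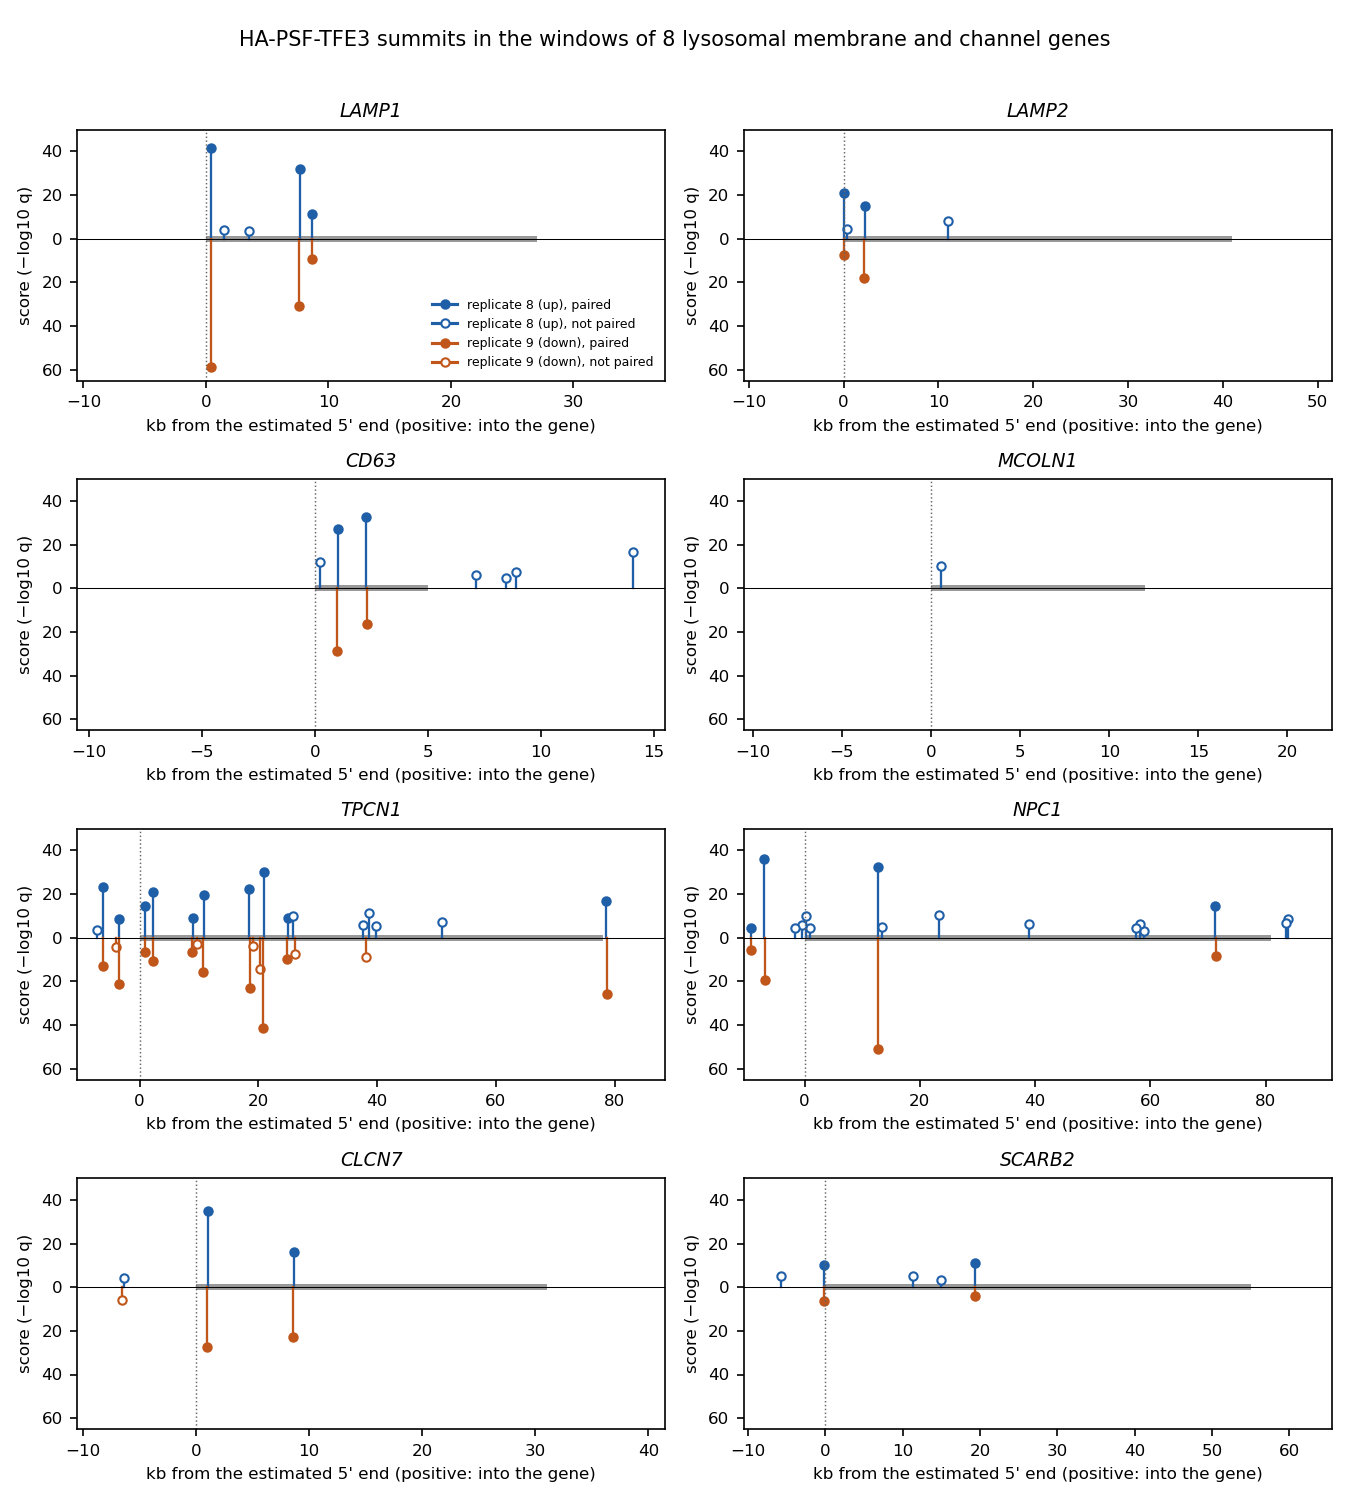
Summits in the window of each gene by distance in kb from the estimated 5′ end (x axis, positive into the gene; grey bar, the gene) and score as −log10 q (y axis), with replicate 8 drawn upward and replicate 9 downward, and filled points for paired summits. LAMP1, CLCN7 and CD63 have tall pairs at or near 0 kb, NPC1 has its tall pairs at 12.69 kb and 6.95 kb upstream, and TPCN1 has pairs along its length.

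The cation channels had the lowest and, in replicate 8 jointly with NPC1, the highest number of summits, in windows of 32 kb for MCOLN1 and 98 kb for TPCN1. Per 100 kb, MCOLN1 was lowest in both libraries, at 3.12 in replicate 8 and 0 in replicate 9. TPCN1, at 16.3 in both, was highest in replicate 9, whereas in replicate 8 CD63 was highest at 28.0. The CD63 window is 25 kb for a gene of about 5 kb, so most of it is flank. These densities describe windows, not the genes alone. MCOLN1 (chromosome 19) had 1 summit, in replicate 8, at 7587574. It had a score of 10.2, near the middle of its list at the 59.4 percentile. It lay 0.57 kb inside the estimated 5′ end, a distance within the error of that end. No replicate 9 summit was listed within its window, the nearest lying 124852 bp away. Recurrence at MCOLN1 could therefore not be shown, and its promoter entry holds 2 extended E-boxes.

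TPCN1 (chromosome 12) had 16 summits in each library and 10 pairs. Its best pair, at 113679936 and 113679841, had scores of 30.0 in replicate 8 and 41.2 in replicate 9, and lay 20.89 kb into the gene. Next to it, at 18.49 kb, a pair had scores of 22.3 and 23.2. The pair nearest the 5′ end, at 0.91 kb, was weaker, with scores of 14.5 and 6.40. Further pairs lay 2.21 kb into the gene (20.9 and 10.9), 8.90 kb (9.09 and 6.61), 10.76 kb (19.7 and 15.5) and 24.90 kb (8.99 and 9.72). The remaining pairs were in the flanks. At 6.11 kb upstream the scores were 23.3 and 12.8, at 3.50 kb upstream they were 8.36 and 21.3, and just past the 3′ end, at 78.62 kb, they were 16.8 and 25.6. The neighbour in order on the upstream side is DRC10 and on the downstream side SLC8B1. TPCN1 held 6 of the 7 unshared replicate 9 summits of all windows, and all 6 lay between 233 and 652 bp from a replicate 8 summit.

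CLCN7 (chromosome 16) had 3 summits in each library. The pair at 1524968 and 1524989, 1.02 kb from the 5′ end, had scores of 34.8 in replicate 8 and 27.2 in replicate 9 and was the best of the window in both. The pair at 8.63 kb had scores of 15.9 and 22.8. The remaining summits, on the PTX4 side of the gene at 6.33 and 6.54 kb upstream, had scores of 4.39 and 5.73 and lay 208 bp apart, just outside the 200 bp limit.

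NPC1 (chromosome 18) differed most between the lists, with 16 summits in replicate 8 and 4 in replicate 9. All 4 of replicate 9 were shared. The pair at 21154315 and 21154301, 12.69 kb into the gene, had scores of 32.2 and 51.0 and ranked next after the LAMP1 pair of the 25, and its summits were 14 bp apart, the closest of any pair here. A pair 6.95 kb upstream, on the ANKRD29 side, had scores of 36.1 and 19.2. Weaker pairs lay at 71.26 kb (14.5 and 8.50) and 9.23 kb upstream (4.39 and 5.73). At the 5′ end itself the libraries parted. Replicate 8 had 4 summits within 2 kb of it, with scores of 4.39, 4.59, 6.0 and 9.88, and replicate 9 had none, its nearest summit to any of them being 5198 bp away. Thus NPC1 had recurrent summits inside and upstream of the gene but none within 2 kb of the 5′ end, and its promoter entry had no E-box.

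SCARB2 (chromosome 4) had pairs of low score. The pair at the 5′ end, at 77135122 and 77135200 and 0.16 kb outside it, had scores of 10.4 in replicate 8 and 6.45 in replicate 9. The pair 19.33 kb into the gene had scores of 10.8 and 4.23. The best SCARB2 summit of replicate 9 was at the 29.1 percentile of its list. FAM47E is the neighbour in order on the upstream side, where 1 further replicate 8 summit, with a score of 5.10, lay 5.78 kb away.

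**Figure D3:**
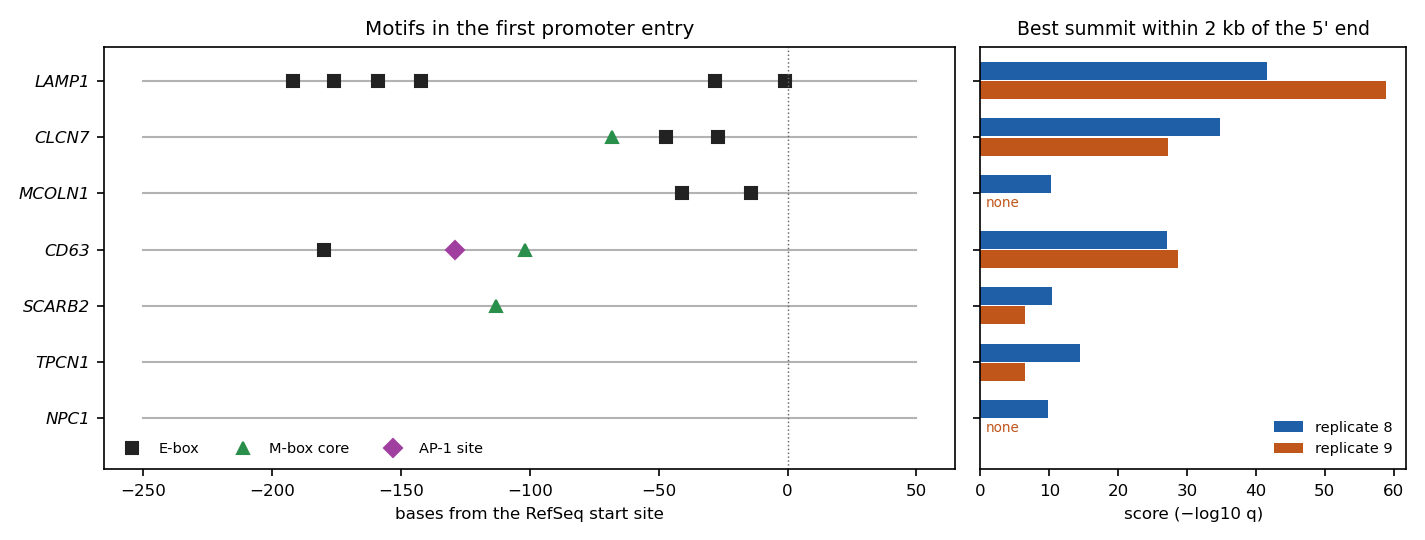
Left, start of each E-box, M-box core and AP-1 site by bases from the RefSeq start (x axis) in the first promoter entry of 7 genes. Right, score as −log10 q of the best summit within 2 kb of the estimated 5′ end in replicate 8 (blue) and replicate 9 (orange); LAMP1, with 6 E-boxes, scored 41.6 and 58.8, and MCOLN1, with 2, scored 10.2 in replicate 8 with none in replicate 9.

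Set side by side, the best scores within 2 kb of the 5′ end did not follow the number of E-boxes gene by gene. LAMP1 with 6, CLCN7 with 2 and CD63 with 1 had the 3 highest, at 27.0 or above in both libraries. MCOLN1, however, had as many E-boxes as CLCN7 and scored 10.2 in replicate 8 with no summit in replicate 9. Of the genes with no E-box in their entries, TPCN1 had 14.5 and 6.40, SCARB2 had 10.4 and 6.45, and NPC1 had 9.88 and none. With 7 genes on 2 builds these values are a description, and whether a summit lies on a motif was not tested.

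Strength was compared between libraries over the 25 pairs, each ranked among all 21518 pairs of the lists, since these percentiles do not depend on unshared summits. The median percentile was 66.3 in replicate 8 and 60.8 in replicate 9. Above the midpoint, which divides all pairs equally, were 16 of the 25 pairs in replicate 8 and 15 in replicate 9. In both libraries at once 14 were above it, and the matching share of all pairs was not computed. The LAMP1 5′ pair was at 95.5 and 96.2, differing by 0.7 points. The NPC1 pair inside the gene was at 88.5 and 93.8, and the best TPCN1 pair at 86.1 and 89.5. The widest gaps were at TPCN1 3.50 kb upstream, which was 47.7 points higher in replicate 9, and at the LAMP2 5′ end, where the percentile fell by 39.7 points from replicate 8 to replicate 9. Both CD63 pairs and both SCARB2 pairs were higher in replicate 8. Over the 25 pairs the quartiles of replicate 9 minus replicate 8 were -22.4 and 5.3 points, and over all pairs they were -12.8 and 13.2. Spearman's rho of the scores was 0.716 across the 25 pairs and 0.728 across all pairs, which is given as a description because neighbouring sites in a window share library, depth and chromatin. The summits of a pair were 14 to 134 bp apart, with a median of 49 bp, compared with 52 bp for all pairs.

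**Figure D4:**
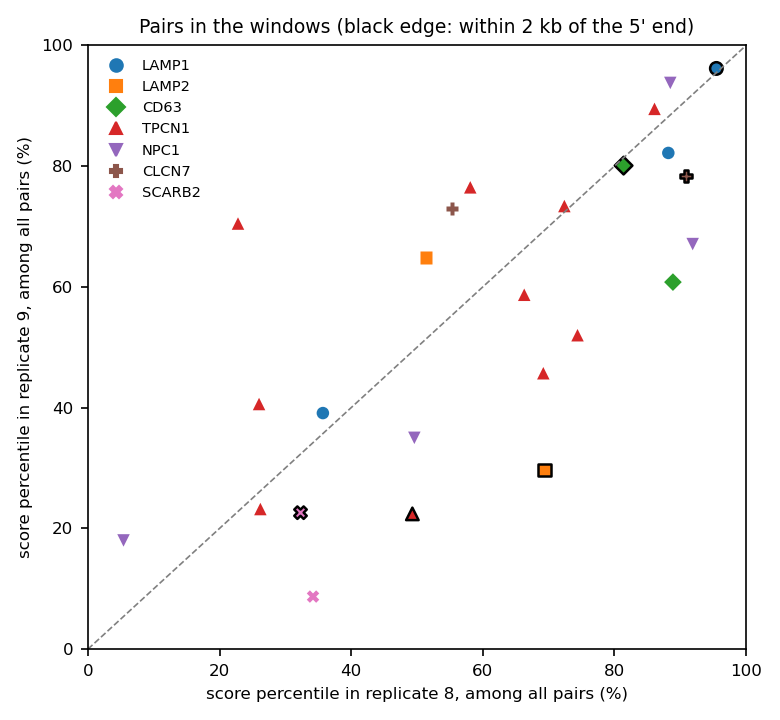
Score percentile of each of the 25 pairs among all 21518 pairs in replicate 8 (x axis, %) and replicate 9 (y axis, %), with a symbol for each gene, black edges for pairs within 2 kb of the 5′ end and a dashed line of equality. LAMP1's 5′ pair sits at the upper right at 95.5 and 96.2, and the 5′ pair of LAMP2 lies below the line at 69.4 and 29.7.

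Unshared summits in the windows were mostly weak. Their median score was 5.92 in replicate 8 (32 summits) and 5.73 in replicate 9 (7 summits), while shared summits had medians of 19.7 and 16.3. The whole lists had medians of 5.29 and 6.40 for unshared summits and 14.7 and 12.4 for shared ones. Among the unshared summits of the windows, 5 in replicate 8 and 1 in replicate 9 scored 10 or more. The matching share of each whole list was not computed. The highest in the windows were the CD63 summit 14.08 kb from the 5′ end, at 16.4 in replicate 8, and a TPCN1 summit at 20.33 kb, at 14.2 in replicate 9. NPC1 with 12, TPCN1 with 6 and CD63 with 5 held most of the 32 in replicate 8.

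Few summits lay close to a window edge. The summits nearest an edge on the inside were those of NPC1, 0.76 kb from it with a score of 4.39 in replicate 8 and 0.79 kb with a score of 5.73 in replicate 9, and that of CD63 in replicate 8, 0.92 kb from it with a score of 16.4. On the outside the nearest was 6.83 kb beyond the LAMP2 window, with a score of 9.43 in replicate 8, followed by one 10.71 kb beyond MCOLN1, with a score of 3.99. In replicate 9 the nearest was 11.65 kb beyond the LAMP1 window, with a score of 37.9.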

How the data were processed

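HA ChIP-seq summits from doxycycline-treated HK-2 cells were analysed in 2 libraries. The authors aligned single-end reads, removed duplicates and ran MACS2 (version not given in the sources used here) on each library against the input, without pooling. Passages of the methods differ in the aligner (bwa or bowtie2), the build (hg19 or hg38) and the threshold (a q-value, a p-value, or a q-value with a minimum enrichment). The deposited files give 1 summit per peak, with −log10 q-value as its score. A q-value of 0.05 is a score of 1.30, and the lowest scores were 1.37 in replicate 8 and 1.33 in replicate 9. The labels name hg19, and 364 and 262 summits were past hg38 chromosome ends, so hg19 was used as the build. No annotation on hg19 was used, and the planned count over other lysosomal membrane genes was not run.

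Summits in each window were found by position. Percentiles are mid-ranks of scores. The members, lists and measures were chosen with earlier results of these data known, and the named genes are all 8 members. Alternatives were the sharing distance, minimum scores, window edges, merging of close summits, equal list lengths, distance to the 5′ end and leaving out a replicate. Distance functions were tested on simulated lists. Intervals are 95% Wilson intervals. Depth per sample is not given by the lists. The paper's reporting summary gives total reads for each ChIP library, more for replicate 8 than for replicate 9, but no precision from depth is stated. The software was pandas 2.3.3, scipy 1.17.1 and numpy 2.4.6 under Python 3.11.15, with matplotlib 3.10.9 for plots.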

Additional observations from a re-analysis of the deposited data

How the results depend on the processing

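Of 80 values under the alternatives, 60 stayed within the spread set for them and 20 moved. The spread differed by measure, so the tally mixes strict and loose limits. For the median score percentiles that spread was narrow, the standard deviation between replicates of 0.658 points, so small shifts counted as moved. For the rho of the member pairs that spread was wide, an interval of 0.448 to 0.866. All its values stayed inside, though they ran from 0.468 with a minimum score of 10 to 0.804 without flanks. With sharing within 50 bp it was 0.544. Sharing within 50 bp lowered the percentages to 22.8% in replicate 8 and 40.6% in replicate 9 and left 3 genes with a pair within 2 kb of the 5′ end, and within 500 bp the replicate 9 percentage was 90.6%. These follow from the distance allowed. A minimum score of 10 left 26 summits in replicate 8 and 17 in replicate 9 (5.31 and 3.47 per 100 kb), 57.7% shared in replicate 8 and 3 genes with a pair near the 5′ end, LAMP1, CD63 and CLCN7. Equal list lengths gave 63.2% shared in replicate 8. The median score percentile in replicate 8 was 54.2 over all summits and fell below the list midpoint of 50, to 45.8, with a minimum score of 5. It was 51.5 with a minimum of 10, 59.8 without flanks, 55.2 with wider windows, 56.7 after merging and 50.3 at equal lengths. In replicate 9 it was 54.1 with a minimum score of 5, 56.7 without flanks and 57.6 after merging. The cause of these moves was not tested.

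The count of genes with a shared summit ran from 6 to 8 and that of genes with one near the 5′ end from 3 to 8 over all settings. With 1 library on its own, any summit counted, which gave 7 to 8 and 6 to 8. Within 1 kb of the 5′ end 4 genes had a pair, and within 5 kb 6 had one. The estimated end is uncertain by about that smaller distance, and by an unknown amount for LAMP2 and SCARB2. No paired analysis was possible because the series has 1 group of ChIP libraries.

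Read counts at each site, which the lists do not give, limit any reading of summits found in 1 library alone, as at MCOLN1 and the 5′ end of NPC1. By the paper's reporting summary replicate 8 had the larger total of reads, and whether this bears on such summits was not tested.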
